A study of Mus musculus with 13 samples.

Results

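The hedgehog pathway was followed through 9 genes, Hhip, Ptch1, Gli1, Gli2, Gli3, Dhh, Ihh, Smo and Sufu, out of 49585 genes counted in 13 RNA-seq libraries of mouse oocytes. The list was selected on the level of Hhip, which had been seen to fall following γ-irradiation, so its levels and changes after irradiation at either dose are described here without a test. All 9 genes were found in every library and all 9 passed the filter on low counts in each comparison. Ovaries of female CD-1 pups at day 5 after birth (P5) were kept in culture overnight, received 0.5 or 0.2 Gy from a caesium source and were dissociated with trypsin at 0 h or up to 6 h after irradiation, and the oocytes were separated from follicular cells by repeated centrifugation, with several ovaries pooled per time point. The 8 libraries of 0.5 Gy belong to the first generation (0, 1 and 4 h) and the second generation (the same times, 2.5 h and 6 h) named in the labels, and the 5 libraries of 0.2 Gy, at these 5 times, to the third. Thus 0, 1 and 4 h at 0.5 Gy are duplicates, every other time point is a single library, and the dose of 0.2 Gy cannot be told apart from the third generation. No genotype other than CD-1 and no agent other than irradiation was used, and each generation has its own 0 h library.

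Hedgehog ligands (Sonic, Indian and Desert hedgehog) are secreted proteins that bind the receptor Patched1, which otherwise holds the membrane protein Smoothened inactive. Active Smoothened frees the Gli transcription factors from Sufu, and Gli proteins then turn on target genes that include Gli1, Ptch1 and Hhip. Both Ptch1 and Hhip, a membrane-bound decoy that sequesters ligand, thereby dampen the signal that induces them. In the ovary, Indian and Desert hedgehog are known as products of granulosa cells, while the surrounding mesenchymal and theca cells are the known responding cells.

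The libraries held between 15709549 and 30430104 estimated reads, with replicate 2 of 0 h at 0.5 Gy the smallest. The labelled cell type is the oocyte, and the 12 oocyte markers summed to between 3209 and 4839 CPM, that is, estimated reads scaled to the normalized size of each library. The markers of other ovarian cells were present too, since each of the lists for granulosa cells, stroma, endothelium, red blood cells and leukocytes had 0 genes that stayed at 3 reads or fewer throughout. The 12 granulosa cell markers summed to between 1311 and 2398 CPM and the 12 stroma and theca markers to between 2469 and 4151 CPM. In replicate 2 of 0 h at 0.5 Gy the 6 leukocyte markers summed to 256 CPM, against 39.7 to 91.9 CPM in the other libraries. Most of this was S100a8 (133 CPM) and S100a9 (50.3 CPM), which reached at most 5.49 and 3.37 CPM elsewhere. Ptprc and Csf1r lay within the range of the other libraries. Cd68 was at its lowest (0.271 CPM), and Lyz2 (56.1 CPM) was just above its next highest value, 53.3 CPM. In these bulk samples, fewer cells of a type and less RNA per cell cannot be told apart.

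Compared per length, in TPM (reads scaled to transcript length and library), the receptor Ptch1 had the highest median level over the 13 libraries, 6.35 TPM. Smo (3.47 TPM) and Sufu (3.33 TPM), the transducer and the inhibitor of Gli proteins, followed. Gli3, which acts largely as a repressor, had a median level of 1.73 TPM, Gli2, the main activator, 1.199 TPM, and Gli1, itself a target, 0.73 TPM. Dhh (0.59 TPM), Hhip (0.55 TPM) and Ihh (0.25 TPM) were the lowest. The ranges of neighbours in this order overlapped in every case, although Sufu was above Gli3 in 13 of 13 libraries and Ptch1 above Smo in 12 of 13. Shh, the ligand that gives the pathway its name in many tissues, had between 1 and 19 estimated reads per library.

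**Figure D1:**
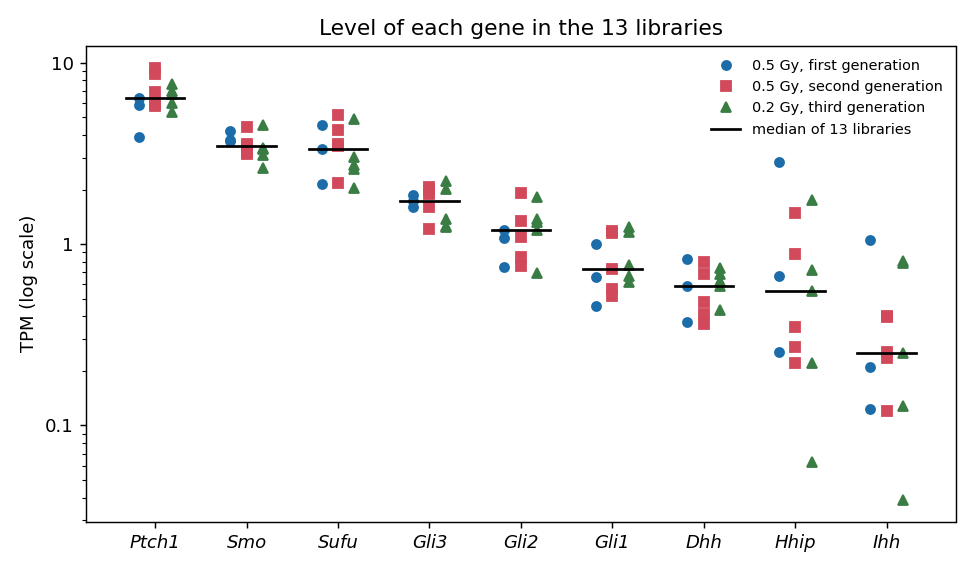
Level of each of the 9 genes in TPM on a log scale, with 1 point per library, coloured and shaped by dose and generation, and a bar at the median of 13 libraries. Ptch1 has the highest median (6.35 TPM) and Ihh the lowest (0.25 TPM), and Hhip and Ihh are spread over the widest ranges.

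The 9 genes differed in how much they varied among the libraries. The SD of log2 CPM over the 13 libraries was 1.28 for both Hhip and Ihh. Of the 26764 genes tested over the 13 libraries, 5.20% varied more than either. Hhip was chosen on its change across these libraries, so nothing is read from its share. Ihh had between 4 and 142 estimated reads per library, so its SD also holds counting error. Smo was the steadiest of the 9, with an SD of 0.18 that 95.8% of the tested genes exceeded, and Ptch1 and Gli3 followed with 0.23 and 0.26. The median SD of all tested genes was 0.54.

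Hhip had 40.2 CPM and 15.5 CPM in the first and second replicate of 0 h at 0.5 Gy. It had 12.2 and 3.56 CPM at 1 h, 4.302 CPM at 2.5 h, 4.42 and 12.1 CPM at 4 h and 7.70 CPM at 6 h. Both 0 h libraries thus lay above all 6 later libraries of this dose, as they did for 5.63% of 26764 genes, and the lowest value was already reached at 1 h in the second generation. These values chose the gene, and nothing is read from that share. The replicates of a time point differed by as much as several of the time points did, and replicate 1 of 0 h stood highest of all 13 libraries.

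At 0.2 Gy Hhip had 16.3 CPM at 0 h, 5.94 CPM at 1 h, 1.93 CPM at 2.5 h, 4.24 CPM at 4 h and 31.8 CPM at 6 h. The level at 1, 2.5 and 4 h was below that at 0 h as it was at the higher dose, but the 6 h library lay above the 0 h library of its own generation. The low at 2.5 h rests on 52 estimated reads, with an exact 95% Poisson interval of 1.44 to 2.53 CPM, and the 6 h level on 786 reads, with an interval of 29.6 to 34.1 CPM. These intervals cover counting error only, and each of the time points at this dose is a single library. Hhip was below the 0 h library of its own generation in 9 of the 10 later libraries, which share 3 such 0 h libraries, and 7.19% of 26764 genes were below in at least as many. This count too is among the values that chose Hhip, and nothing is read from it. The log2 ratio of the mean later level to 0 h was -2.27 in the first generation, -1.17 in the second and -0.57 in the third.

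Late against early at 0.5 Gy, with 2.5, 4 and 6 h set against 0 and 1 h, Hhip averaged 7.14 CPM ± 3.68 (SD, n = 4) against 17.9 CPM ± 15.7 (SD, n = 4). The fitted log2 fold change was -1.33 with a standard error of 0.59, given as a description since this contrast overlaps the one that chose the genes. Without replicate 1 of 0 h it was -0.53. Each side pools several time points, and its SD therefore holds any change between them. At 0.2 Gy, 4 and 6 h against 0 and 1 h gave a log2 fold change of 0.77 (SE 0.98), likewise a description. The sign of that value rested on 1 library: without 6 h it was -1.30, so 4 h alone lay below the early libraries.

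Most reads of Hhip, between 67.4% and 100% per library, were assigned to its protein-coding transcript. Hhip lies on chromosome 8 (GRCm38, 79965851 to 80058006, minus strand), and 1.61% of its 30-base sequences also occur in other genes.

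Ihh, the ligand Indian hedgehog, followed Hhip more closely than any other of the 9 genes. It had 5.61 and 1.09 CPM at 0 h of 0.5 Gy, 1.18 and 0.727 CPM at 1 h, 2.13 CPM at 2.5 h, 0.654 and 2.40 CPM at 4 h and 1.43 CPM at 6 h. At 0.2 Gy it had 4.05, 1.41, 0.148, 0.707 and 4.49 CPM in order of time from 0 to 6 h. The 0.2 Gy series therefore had the same shape as that of Hhip, with the low at 2.5 h (4 estimated reads) and a 6 h value above 0 h. The second generation did not, since its 0 h library held only 16 reads of Ihh and the libraries of 2.5, 4 and 6 h lay above it.

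Pearson's r of log2 CPM between Hhip and Ihh was 0.85 over the 13 libraries and Spearman's rho was 0.79, given as a description of libraries that share their preparation and cell mix. Among 15067 protein-coding genes with a mean of at least 1 CPM, Ihh ranked number 6 in likeness to Hhip. Without the 2 libraries farthest from the median of Hhip, which are replicate 1 of 0 h at 0.5 Gy and 6 h at 0.2 Gy, r was 0.75. Within the 8 libraries of 0.5 Gy it was 0.72, where Ihh ranked number 290, and without the 3 libraries of 0 h it was 0.85. That Ihh is set beside Hhip was decided after the values were seen.

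The 12 granulosa cell markers, summed, had an r of 0.83 with Ihh and 0.65 with Hhip over the 13 libraries. The r of the sum rested on Inha, which encodes the α subunit of inhibin and made up much of the sum. Without it, r was 0.07 with Ihh and 0.17 with Hhip, an alternative chosen after the values were seen. Taken singly, 9 of the 12 markers had an r above 0 with Hhip and 3 below, and 10 and 2 with Ihh. With Hhip, r was highest for Inhbb (0.75), 0.60 for Inha and lowest for Amhr2 (-0.61). The lowest sum of the 12 markers, 1311 CPM, was in the 2.5 h library of 0.2 Gy, where Hhip and Ihh were lowest. The highest, 2398 CPM, was in the 6 h library of 0.2 Gy. Without Inha the lowest sum, 683 CPM, was in the same 2.5 h library, and the 6 h library held 840 CPM. The highest sum without Inha, 884 CPM, was in replicate 1 of 4 h at 0.5 Gy. In the 2.5 h and 6 h libraries of 0.2 Gy, Inha stood at 628 and 1558 CPM, Inhbb at 31.1 and 178.5 CPM and Nr5a2 at 53.8 and 130 CPM. Only Kitl (165 and 82.3 CPM) and Amhr2 (242 and 179 CPM) were lower at 6 h, and all other markers of the list were higher. The part of the granulosa cell share in the levels of either gene was not tested. In the early libraries of 0.5 Gy the marker sum ranged from 1452 to 2078 CPM and in the late ones from 1613 to 2168 CPM.

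**Figure D2:**
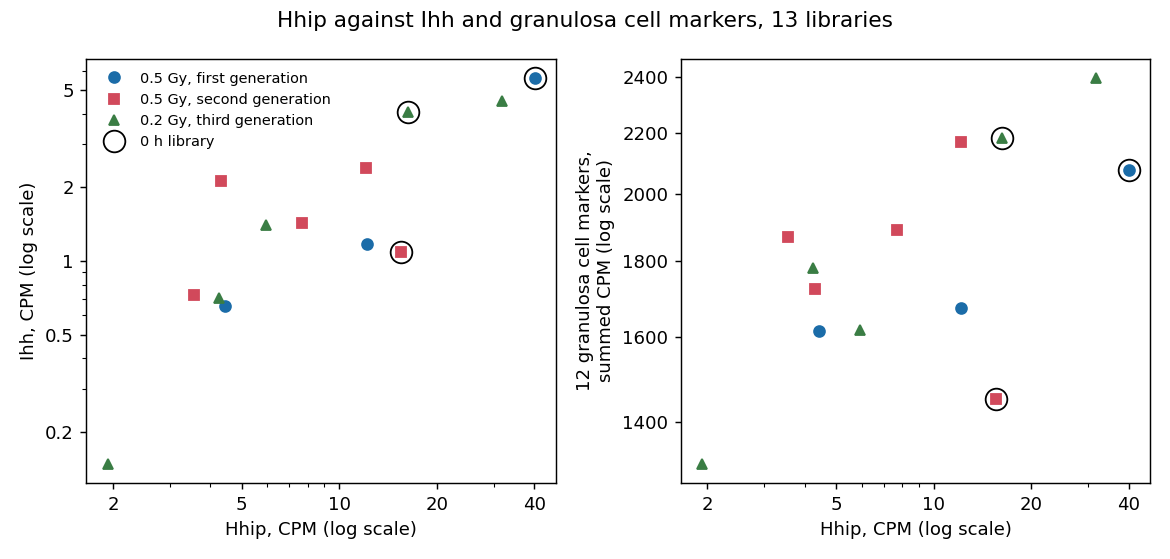
Ihh (left) and the summed level of 12 granulosa cell markers (right) against Hhip, all in CPM on log scales, with 1 point per library and a circle around each 0 h library. The 2.5 h library of 0.2 Gy lies at the low end of all 3 measures (Hhip 1.93 CPM, Ihh 0.148 CPM), and r with Hhip is 0.85 for Ihh and 0.65 for the markers, or 0.17 for the markers without Inha.

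The 250 bases before a RefSeq start of Hhip, Ihh and Ptch1 are shown because the first pair varied together across libraries while Ptch1, with an r of 0.27 to Hhip, did not. Promoters were held for 8 of the 9 genes (all but Gli1) in the RefSeq table of GRCm38.p6. Each is printed from 5′ to 3′ on the strand of the gene, with CpG dinucleotides in capitals. The windows are chr8:80058009-80058258 for Hhip, chr1:74951673-74951922 for Ihh and chr13:63565736-63565985 for Ptch1, all on the minus strand. The windows of Hhip and Ihh end next to the gene starts of GENCODE, whereas that of Ptch1 precedes a RefSeq start inside the gene as GENCODE draws it (chromosome 13, 63508328 to 63573598).
Hhip: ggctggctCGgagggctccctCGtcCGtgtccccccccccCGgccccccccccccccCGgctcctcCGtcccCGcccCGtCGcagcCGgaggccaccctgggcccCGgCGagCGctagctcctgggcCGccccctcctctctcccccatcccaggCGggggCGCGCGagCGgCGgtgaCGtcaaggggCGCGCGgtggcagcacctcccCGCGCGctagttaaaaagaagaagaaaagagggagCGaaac
Ihh: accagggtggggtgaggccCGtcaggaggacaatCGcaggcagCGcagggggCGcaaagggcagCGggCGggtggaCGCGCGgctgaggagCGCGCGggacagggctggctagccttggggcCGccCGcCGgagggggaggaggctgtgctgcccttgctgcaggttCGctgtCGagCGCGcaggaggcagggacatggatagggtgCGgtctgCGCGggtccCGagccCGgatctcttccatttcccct
Ptch1: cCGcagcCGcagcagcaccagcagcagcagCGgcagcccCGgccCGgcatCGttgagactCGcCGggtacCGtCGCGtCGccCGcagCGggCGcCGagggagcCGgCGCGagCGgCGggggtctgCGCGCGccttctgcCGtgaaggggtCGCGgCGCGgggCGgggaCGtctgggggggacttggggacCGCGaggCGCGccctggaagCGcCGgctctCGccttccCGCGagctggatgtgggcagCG
They hold 28, 24 and 41 CpG dinucleotides, against a median of 6 over 32544 promoters, and 92.3%, 87.9% and 98.9% of promoters hold fewer. The Gli binding motif GACCACCCA was searched on both strands and was in 0 of the 8 windows and in 0.218% of all promoters. A p53 half-site was in 0 of the 8 windows as well and in 7.13% of all promoters. This says only that these letters are not in these windows.

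The 5 protein-coding genes most like Hhip over the 13 libraries were Ccdc160 with an r of 0.93, Rhox8 with 0.92, Hspb11 with 0.89, Nlrp9c with 0.87 and Elovl6 with 0.87. Rhox8, a homeobox gene, ranged from 4.00 to 28.5 CPM with its highest level in the 6 h library of 0.2 Gy, at 28.5 CPM. Nlrp9c, of a family known from oocytes, ranged from 1.04 to 27.8 CPM, and Elovl6, a fatty acid elongase, from 19.0 to 60.1 CPM, both highest in replicate 1 of 0 h at 0.5 Gy. Ccdc160 and Hspb11 ranged from 2.87 to 11.9 CPM and from 20.4 to 36.9 CPM.

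Ptch1, the receptor and a target of the pathway, had 138 and 137 CPM at 0 h of 0.5 Gy. It had 122.45 and 137 CPM at 1 h, 121.94 CPM at 2.5 h, 86.7 and 105 CPM at 4 h and 91.2 CPM at 6 h. All 4 late libraries were below all 4 early ones, which held for 2.14% of the genes tested, but the margin was only that between 121.94 and 122.45 CPM. In TPM, read after the values were seen, the groups overlapped, since the 2.5 h library held the highest Ptch1 level of this dose, 9.41 TPM, against 5.89 to 8.66 TPM in the early libraries. That library also had the most reads, 24.9, on Ptch1-208, a retained intron of 349 bases. In summed TPM a read on a short transcript weighs more, and the part of these reads in the overlap was not tested. At 0.2 Gy Ptch1 had 103, 102, 123, 121 and 136 CPM in order of time from 0 to 6 h, and here 4 and 6 h were above 0 and 1 h, as for 15.4% of genes.

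The log2 fold change of Ptch1, late against early, was -0.40 (SE 0.15) at 0.5 Gy, with an unadjusted p under 0.05 and an adjusted p = 0.473 in edgeR's quasi-likelihood test. At 0.2 Gy it was 0.40 (SE 0.18), again with an unadjusted p under 0.05, and with an adjusted p = 0.679 in edgeR. In the test of the difference between the doses, over 11 libraries of 0, 1, 4 and 6 h, the log2 difference was 0.91 (SE 0.23), with an adjusted p = 0.400 over 28162 genes in edgeR. DESeq2's Wald test put the same difference at 0.96 with an adjusted p = 0.0170, past the limit of 0.05 but short of the log2 fold change of 1 that a call also required. Over the alternatives run, the log2 difference stayed between 0.78 and 1.01 and the adjusted p ranged from 0.0170 to 0.957. Ptch1 was singled out after its values were seen, and dose and generation cannot be told apart here.

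Gli1, whose transcript is widely used as a readout of the pathway, had 11.2 and 2.92 CPM at 0 h of 0.5 Gy, 6.58 and 10.2 CPM at 1 h, 5.60 CPM at 2.5 h, 3.92 and 5.50 CPM at 4 h and 8.15 CPM at 6 h. At 0.2 Gy it had 5.92, 6.23, 8.75, 9.30 and 5.75 CPM in order of time from 0 to 6 h. The 0 h replicates held both the highest and the lowest value of the 13 libraries, so the later libraries all lay between them. Its r with Hhip was -0.14.

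Gli2 had 14.1 and 10.7 CPM at 0 h of 0.5 Gy and 20.4 and 26.1 CPM at 1 h. It had 12.8 CPM at 2.5 h, 15.1 and 11.6 CPM at 4 h and 14.6 CPM at 6 h. In CPM the 1 h libraries were the highest of the 13, and lay above both 0 h libraries as 14.5% of genes did, and the log2 fold change of 1 h against 0 h was the highest of the 9 genes at that time, with an unadjusted p under 0.05 but an adjusted p = 1 in edgeR. At 0.2 Gy Gli2 had 17.8 CPM at 0 h and 15.0 CPM at 1 h, so the higher level at 1 h was not seen in the third generation. Its 4 and 6 h libraries, at 14.8 and 10.9 CPM, lay below those of 0 and 1 h, as for 30.6% of genes.

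Gli3 ranged from 32.8 to 57.3 CPM over the 13 libraries. For late libraries against early ones the log2 fold change of Gli3 was -0.23 (SE 0.17) at 0.5 Gy and 0.43 (SE 0.26) at 0.2 Gy, with adjusted p = 0.721 and 0.746 in edgeR. The log2 difference between the doses was 0.73 (SE 0.33), with an adjusted p = 0.606 in edgeR. Without the 4 h library of 0.2 Gy, where Gli3 reached 54.8 CPM, that difference was 0.31.

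Sufu had 15.9 and 20.5 CPM at 0 h of 0.5 Gy and between 22.9 and 32.1 CPM in the 6 later libraries. Both 0 h libraries lay below all 6, as for 5.35% of 26764 genes. At 0.2 Gy the order was the opposite, with 30.1 CPM at 0 h and between 15.98 and 25.3 CPM in the 4 later libraries. Above its own 0 h library at 0.5 Gy and below it at 0.2 Gy throughout, Sufu shared this pattern with 2.16% of those genes, and it held in TPM as well. Late against early, the log2 fold changes of Sufu were 0.15 (SE 0.22) and 0.19 (SE 0.35) at 0.5 and 0.2 Gy, with adjusted p = 0.885 and 0.924 in edgeR.

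Smo was nearly level, between 26.6 and 41.6 CPM, and its log2 fold changes late against early were -0.01 (SE 0.16) at 0.5 Gy and 0.22 (SE 0.22) at 0.2 Gy. Dhh, the ligand Desert hedgehog, ranged from 4.34 to 9.09 CPM, with log2 fold changes of -0.45 (SE 0.34) and 0.23 (SE 0.47). Neither passed the test at either dose. Dhh overlaps Rhebl1 on the same strand. Of its 30-base sequences, 23.9% also occur in other genes, and 1025 of these 1043 occur in the antisense gene Gm49442, which had a mean of 6.71 estimated reads. The counts of Dhh are uncertain to the extent that reads fall in shared sequences.

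**Figure D3:**
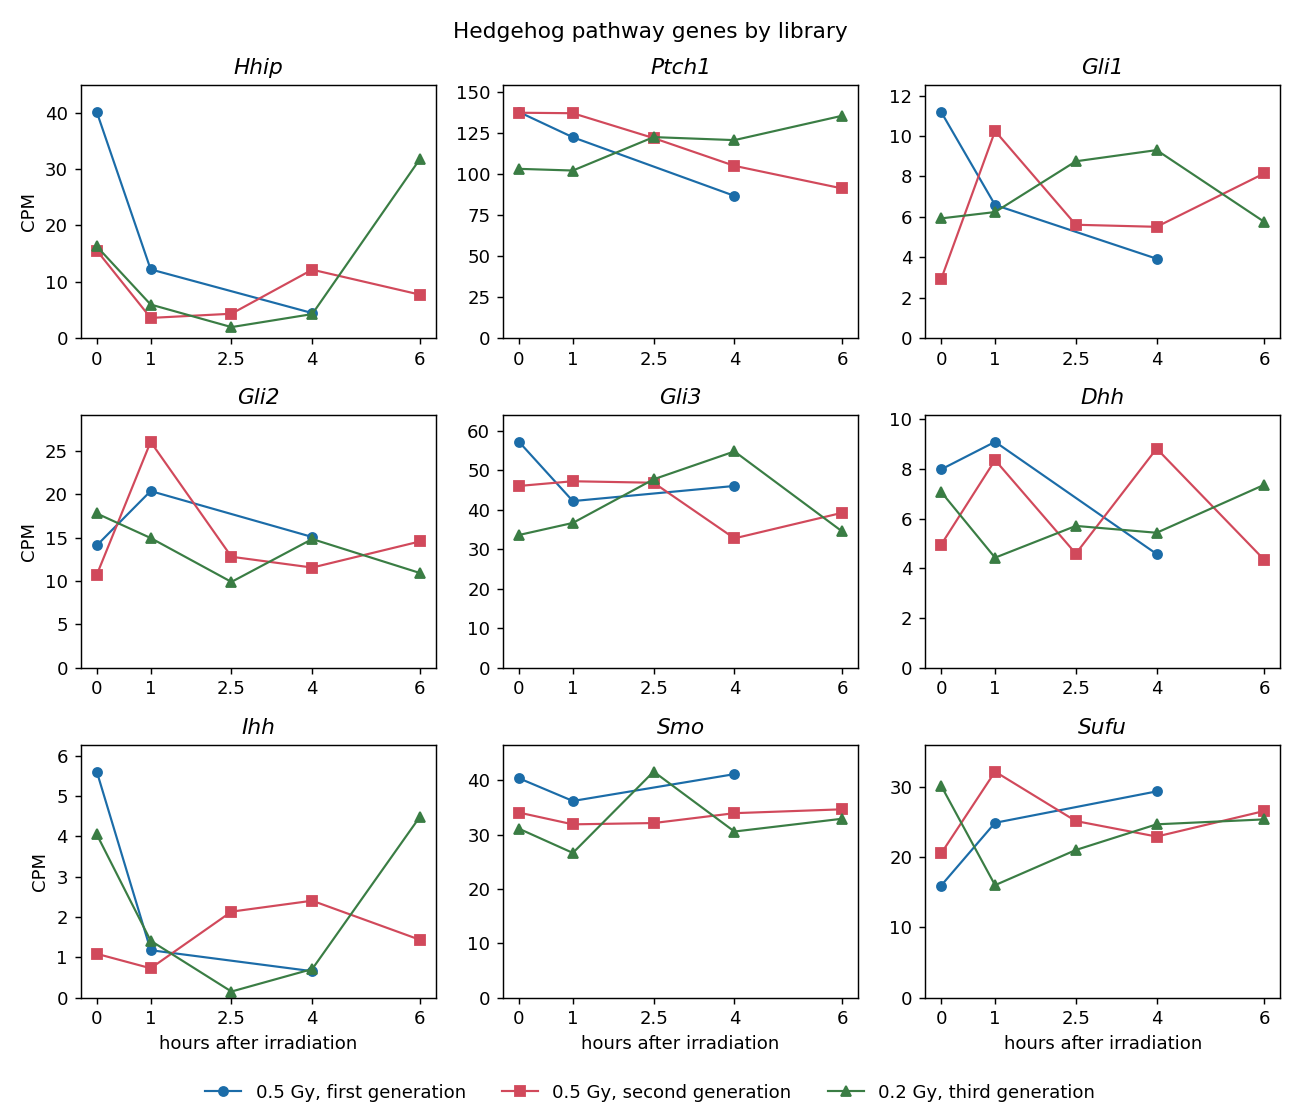
Level of each of the 9 genes in CPM against hours after irradiation, with 1 point per library and lines joining the libraries of a generation (blue and red 0.5 Gy, green 0.2 Gy), each axis starting at 0. Hhip and Ihh are lower at 1 h than at 0 h in each generation and stand at 31.8 and 4.49 CPM in the 6 h library of 0.2 Gy, while Ptch1 ends at 91.2 CPM at 0.5 Gy and 136 CPM at 0.2 Gy. For Ihh in the second generation the 0 h and 1 h levels rest on 16 and 20 estimated reads, and their 95% Poisson intervals overlap.

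The tests were read for the 8 genes other than Hhip. Across the 8 comparisons, 0 of them were called by edgeR, where a call required a Benjamini-Hochberg adjusted p under 0.05 together with a log2 fold change beyond 1 in size, and 0 by DESeq2. Late against early at 0.5 Gy, 0.128% of the genes tested were called, and at 0.2 Gy 0.0462%. In the test of the difference between the doses 0.032% were called, and in edgeR's comparison of each time point of 0.5 Gy with 0 h, and of all later libraries with 0 h, 0 genes were. With an unadjusted p under 0.05, there was 1 of the 8 late against early at 0.5 Gy (Ptch1), where 9.06% of all genes were, 1 of 8 at 0.2 Gy (Ptch1), against 7.29%, and 2 of 8 for the difference between doses (Ptch1 and Gli3), against 8.14%.

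Against 0 h at 0.5 Gy, an unadjusted p under 0.05 was found for 1 of the 8 genes, Gli2, at 1 h, where 3.98% of all genes had one. At 2.5 h (5.59% of all genes), 4 h (5.82%) and 6 h (5.94%) there were 0 of the 8, and 0 of the 8 for all later libraries against 0 h in the fit that blocks on generation (6.28%). In that last fit the log2 fold changes were -1.35 (SE 0.65) for Hhip and -1.25 (SE 0.75) for Ihh, and between -0.15 and 0.15 for the other 7 genes. Without replicate 1 of 0 h at 0.5 Gy they were -0.83 for Hhip and -0.49 for Ihh. The median log2 fold change of the 8 genes late against early was -0.39 at 0.5 Gy, beside -0.02 over all genes tested, and 0.23 at 0.2 Gy, beside -0.03. The comparisons at the 2 doses do not share libraries, though the 0.2 Gy fit took its spread from libraries of both doses.

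**Figure D4:**
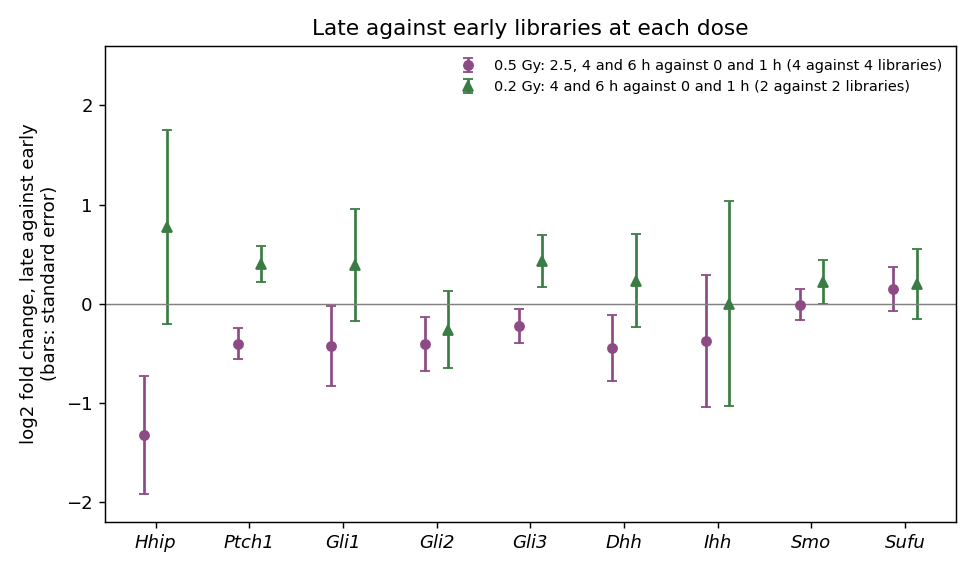
Log2 fold change of late against early libraries for each of the 9 genes, with bars of 1 standard error, at 0.5 Gy (4 against 4 libraries, circles) and 0.2 Gy (2 against 2, triangles). Hhip at 0.5 Gy (-1.33) is the most distant from 0, and Ptch1 lies at -0.40 and 0.40.

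The rest of the pathway was read from 63 further genes in 5 lists, of which between 60 and 62 passed the filter on low counts in a comparison. In each of the 8 comparisons 0 of them were called in either direction by edgeR. Its unadjusted p was under 0.05 for 5 of 60 late against early at 0.5 Gy, against 9.06% of all genes tested. At 0.2 Gy this held for 7 of 62 (7.29% of all genes), and in the difference between doses for 6 of 62 (8.14%). Against 0 h at 0.5 Gy there were 3, 1, 0 and 2 of 62 at 1, 2.5, 4 and 6 h (3.98%, 5.59%, 5.82% and 5.94% of all genes). For all later libraries there were 3 of 61 (6.28%). The gene with the highest mean CPM of each list is named, a measure that is not per length. For ligand production and release it was Hhat, the acyltransferase of hedgehog ligands, at 30.7 to 58.7 CPM, and for co-receptors Gpc3, a glypican, at 157 to 301 CPM. Prkar1a, a regulatory subunit of protein kinase A, was named for the transduction list at 380 to 621 CPM, and Kif3a, a motor of cilium assembly, for the cilium list at 114 to 188 CPM. Ccnd2, a D-type cyclin, was named for the target genes, at 752 to 1354 CPM.

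The medians of the lists stayed near 0 late against early at 0.5 Gy, from -0.08 for 24 transduction genes to 0.15 for 13 target genes on the log2 scale. At 0.2 Gy they ranged from -0.13 for 11 cilium genes to 0.37 for 6 genes of ligand production and release. Over all genes tested the medians were -0.02 and -0.03.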

How the data were processed

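Lists of other hedgehog genes and 6 lists of cell type markers were written down for this work, and the 9 genes and these lists were chosen with earlier results of the same data known. The authors sequenced 30 bp reads, mapped them with salmon (v 0.9.1, per the study's methods) to the mouse transcripts of Ensembl 92, and deposited estimated counts and TPM per transcript and library, without a filter or a normalization between libraries. The deposited comparisons of each time point with 0 h, which hold log2 fold changes and p-values, and a merged table of normalized counts were not used here.

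Estimated counts of 130740 transcripts were summed per gene of the GENCODE annotation of GRCm38 and rounded, and 402 transcripts that no gene of it holds were dropped. After TMM normalization and filterByExpr, sums were fitted with edgeR 4.0.16 (quasi-likelihood) under R 4.3.3. Adjusted p-values are Benjamini-Hochberg over all genes tested. Calls required an adjusted p under 0.05 together with a log2 fold change beyond 1 in size. DESeq2 1.42.0 was an alternative. Log2 CPM used a prior count of 2. A count of 0 allows up to 3 reads.

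At 0.5 Gy each time point was compared with 0 h, and 2.5, 4 and 6 h with 0 and 1 h. At 0.2 Gy 4 and 6 h were compared with 0 and 1 h in 1 fit with 7 libraries of 0.5 Gy, 11 in all. All later libraries were compared with 0 h with the generation as a block. Nothing says that replicates came from separate cultures, so p-values measure the spread between these libraries. Against 0 h, the single libraries of 2.5 and 6 h took their spread from the duplicated times. Late against early, the spread also holds differences between the pooled times. The named genes were the 9, the gene of highest mean CPM in each list (a measure not per length), and the 5 most like Hhip. On simulated counts of 17242 genes, 200 of them moved by 3 on the log2 scale, the fits recovered 199 late against early at 0.5 Gy, 199 at 0.2 Gy and 195 for the difference between doses. Genes that were not moved were called too, 10, 12 and 5 of them in that order. Genes of low mean CPM were not moved and smaller changes were not simulated, so their recovery is not known.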

Additional observations from a re-analysis of the deposited data

Results flagged for a closer look

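Ptch1 differed in opposite directions at the 2 doses, lower in all late libraries at 0.5 Gy and higher in both at 0.2 Gy, by a margin at 0.5 Gy of 121.94 against 122.45 CPM that did not hold in TPM, with a log2 difference of 0.91 (SE 0.23) and an adjusted p = 0.400 in edgeR's quasi-likelihood test. Gli2 lay above the 0 h library of its own generation in 6 of 6 later libraries of 0.5 Gy and below it in 4 of 4 of 0.2 Gy, where the log2 ratio of the mean later level to 0 h was -0.49. Sufu did the same, above in 6 of 6 and below in 4 of 4, with a log2 ratio of -0.47 at 0.2 Gy. Of 26764 genes, 2.16% had this pattern. In TPM it held for Sufu but not for Gli2, of which 2 of the 4 later libraries of 0.2 Gy were above 0 h. These were 1 h and 2.5 h, with 2.75 and 9.94 reads on Gli2-202, a transcript of 367 bases that had 0 reads at 0 h. Summed TPM, for Ptch1 as for Gli2 and Sufu, gives more weight to a read on a short transcript, and the part of such reads was not tested. These ratios of Gli2 and Sufu rest on 1 library of 0 h per generation, and this difference of later libraries from 0 h between the doses was not tested. No group of samples was large enough to look for a single library far from its replicates.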

How the results depend on the processing

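Under each setting run, 0 of the 8 genes other than Hhip were called. Of 558 fitted values of single genes under another setting, 500 kept their sign and 58 did not, and the counts of called genes over all genes moved most. Part of these signs could hardly turn. Leaving out a library of 0.5 Gy barely moves a fold change at 0.2 Gy, and that of Hhip stayed between 0.75 and 0.77. The fit without the 2.5 h library of 0.5 Gy entered both as a setting and as a library left out. The share of kept signs therefore does not measure how firm the values are. With DESeq2, 200, 152 and 134 genes were called late against early at 0.5 Gy, at 0.2 Gy and in the difference between doses, 20, 83, 125 and 138 at 1, 2.5, 4 and 6 h against 0 h, and 56 over the 13 libraries. Without the filter on low counts these were 58, 32 and 22, then 30, 56, 80 and 78, then 1. With the generation as a replicate block, 18 were called late against early at 0.5 Gy and 1, 6 and 7 at 2.5, 4 and 6 h. Without the 2.5 h library, 14 were called late against early at 0.5 Gy, and with the 2.5 h libraries as late, 28 at 0.2 Gy and 20 in the difference between doses. Of the 5 genes most like Hhip, 2 remained in the first 5 over the libraries of 0.5 Gy and 2 without 0 h. The ratios of later levels to 0 h within generations kept their sign for Hhip and Ihh with summed TPM and with protein-coding transcripts only.

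Leaving out 1 library at a time, between 10 and 37 genes were called late against early at 0.5 Gy, 1 and 18 at 0.2 Gy, 0 and 13 in the difference between doses, and, against 0 h, up to 4, 7, 10 and 6 (from 0 each) at 1, 2.5, 4 and 6 h and up to 3 (from 0) over the 13 libraries. In the same fits at 0.5 Gy, the log2 fold change of Ihh ran from -0.65 to 0.74 (0.74 without replicate 1 of 0 h) and of Smo from -0.0732 to 0.0605. At 0.2 Gy, Hhip ran from -1.30 (without 6 h) to 1.74, Gli1 from -0.0162 to 0.71, Dhh from -0.0671 to 0.67, Ihh from -1.85 (without 6 h) to 1.01 (without 0 h) and Sufu from -0.19 to 0.78. In the difference between doses, Hhip ran from -0.16 (without 6 h of 0.2 Gy) to 2.87, Gli2 from -0.15 to 0.35, Ihh from -1.33 to 1.53 and Sufu from -0.35 to 0.63. Over the 13 libraries, Hhip ran from -1.83 to -0.83 and Ihh from -1.90 to -0.49 (both weakest without replicate 1 of 0 h at 0.5 Gy), Ptch1 from -0.31 to 0.0096, Gli1 from -0.35 to 0.82, Gli2 from -0.11 to 0.49, Gli3 from -0.24 to 0.14, Dhh from -0.23 to 0.11, Smo from -0.0549 to 0.0684 and Sufu from -0.0402 to 0.56.

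Signs also turned under other settings, for values that were near 0 in the main fit and for some of Ihh that were not. With median-of-ratios size factors, Ihh at 0.2 Gy was 0.0337 and Smo over the 13 libraries 0.0199. Without the filter, Smo was 0.0375 at 0.5 Gy, Ihh 0.0175 at 0.2 Gy, and Gli3, Dhh and Smo 0.0119, 0.0079 and 0.0589 over the 13 libraries. With the replicate block, Ihh was 0.0791 (-0.38 in the main fit) and Smo 0.0496 at 0.5 Gy. Smo was 0.0266 at 0.5 Gy without the 2.5 h library. With the 2.5 h libraries as late the difference between doses was -0.168 for Ihh (0.53 in the main fit) and -0.0302 for Sufu. With DESeq2, Ihh was 0.0222 at 0.2 Gy and Smo 0.032 over the 13 libraries. The cause of these changes was not tested. The differences between generations correlated across genes with an r of 0.12, 0.08 and 0.11 between pairs of time points, so the replicate numbers were not taken to pair the libraries, and the block changed no call of the 8 genes. The low counts of Ihh and the single libraries limit what could be detected.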
